A study of Mus musculus with 7 samples.

Results

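The TRIM (tripartite motif) genes were followed in naive CD4 T cells (antigen-inexperienced helper lymphocytes) of mice with an activating Pik3cd allele. Every row of the deposited expression table whose gene symbol begins with Trim and a digit was taken, which gave 68 of 34745 genes. There were 4 libraries from heterozygous PIK3CD GOF (gain-of-function) mice and 3 from wild-type (WT) littermate controls, all male C57BL/6 mice aged 8 weeks. Pik3cd encodes p110delta, the catalytic subunit of phosphoinositide 3-kinase (PI3K) that predominates in leukocytes. Cells were taken from the spleen by negative selection, without culture or treatment, and RNA was sequenced in paired-end libraries. The labels do not state which amino acid change the allele carries. They give 3 to 4 mice per group and do not tie each library to a mouse, so p-values measure the spread between these libraries.

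TRIM proteins are a large family of ubiquitin ligases. Most carry a RING finger that binds a ubiquitin-conjugating (E2) enzyme, B-box zinc fingers, a coiled coil, and a variable C-terminal domain that picks the substrate. A branch with a C-terminal SPRY domain includes restriction factors and regulators of nucleic acid sensing, and many of its genes are induced by interferon. Other branches silence chromatin, bind microtubules, or sit in the membrane of the endoplasmic reticulum.

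Of the 68 genes, 39 had enough counts for the test, 13 had some counts but were not tested, and 16 had 0 counts in all libraries. Among the 39 tested genes 8 rose and 5 fell in GOF cells (edgeR quasi-likelihood test, Benjamini-Hochberg adjusted p under 0.05 over all genes). The family as a whole was therefore called in 33.3% of cases, close to the 31.3% called among all 12668 tested genes. By direction, 20.5% of tested TRIM genes were higher, beside 16.8% of all tested genes, and 12.8% were lower, beside 14.5%. The median log2 fold change, GOF over WT throughout, was -0.06 for the tested TRIM genes and 0.01 for all tested genes. Of the 8 rises 4 reached 2-fold, and 0 of the 5 falls did, where 13.7% of all tested genes passed with a change of 2-fold or more. Groups did not overlap for 17 of the 39 genes, which included all 13 that passed, and for 39.7% of all tested genes.

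**Figure D1:**
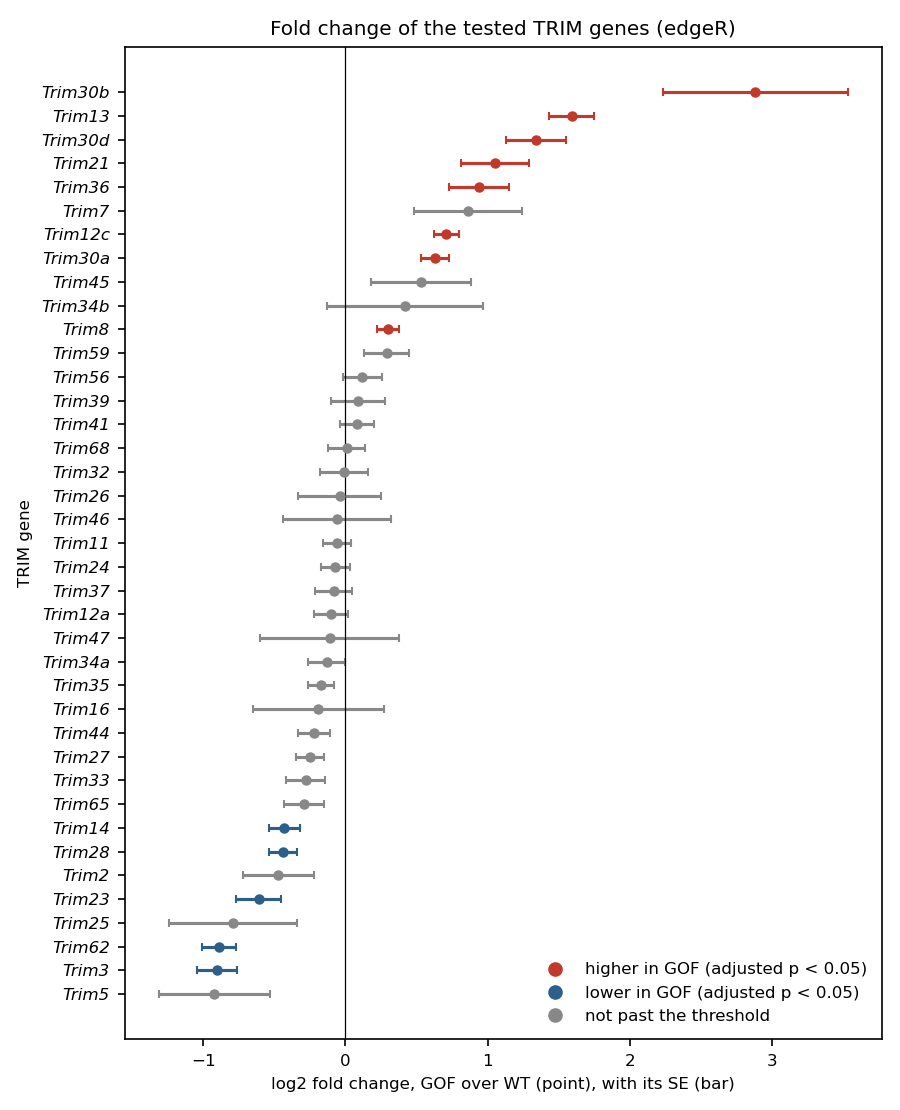
Log2 fold change (x axis, GOF over WT) of the 39 tested TRIM genes, 1 per row, with SE bars from edgeR. Trim30b, Trim13, Trim30d and Trim21 lie above 1 and 26 genes did not pass the threshold.

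The libraries held 14945520 to 16293539 counts in GOF and 14497957 to 15015783 in WT. Pik3cd itself was at 542, 761, 537 and 764 CPM (the count scaled by library total and TMM factor) in GOF libraries and at 937, 1510 and 959 CPM in WT libraries (log2 fold change -0.80, SE 0.20, edgeR adjusted p = 0.0154), a call lost without GOF replicates 1 and 3 (0.106). A transcript level does not test for a coding change. The 10 T cell markers summed to 8146 to 9009 CPM in GOF and 7821 to 8587 CPM in WT, with Cd4 at 1106 and 755 CPM on average. Markers of other cells were mostly higher in GOF libraries. Of macrophage and monocyte markers 9 of 11 rose, of neutrophil markers 8 of 8 and of B cell markers 5 of 8. Of NK and CD8 markers 6 of 8 rose, and of red cell markers 5 of 10 (8 tested). In all these lists 0 fell. The NK and CD8 markers that did not pass were the CD8 chains Cd8a and Cd8b1 (log2 fold change -0.78 and -0.23). Among all tested genes 16.8% rose and 14.5% fell. The macrophage sum was 457 and 494 CPM in GOF replicates 1 and 3, 146 and 166 CPM in GOF replicates 2 and 4, and 41.9 to 82.2 CPM in WT. In such bulk samples fewer cells of a type and less RNA per cell cannot be told apart.

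Levels between genes were compared on the deposited FPKM scale, which divides by gene length. At least 1 FPKM on average in either group was reached by 31 of the 68 genes, and at least 10 FPKM in both groups by 14. The highest mean levels in GOF cells were those of Trim8 (46.4 FPKM, beside 35.8 FPKM in WT), Trim30a (36.0 and 22.1 FPKM), Trim21 (34.2 and 15.7 FPKM), Trim12c (29.8 and 17.3 FPKM) and Trim28 (28.6 and 36.6 FPKM). In WT cells Trim28 and Trim8 led. The summed CPM of all 68 genes was 2322, 2605, 2440 and 2471 in GOF libraries and 2245, 2777 and 2479 in WT libraries, so the groups overlapped.

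**Figure D2:**
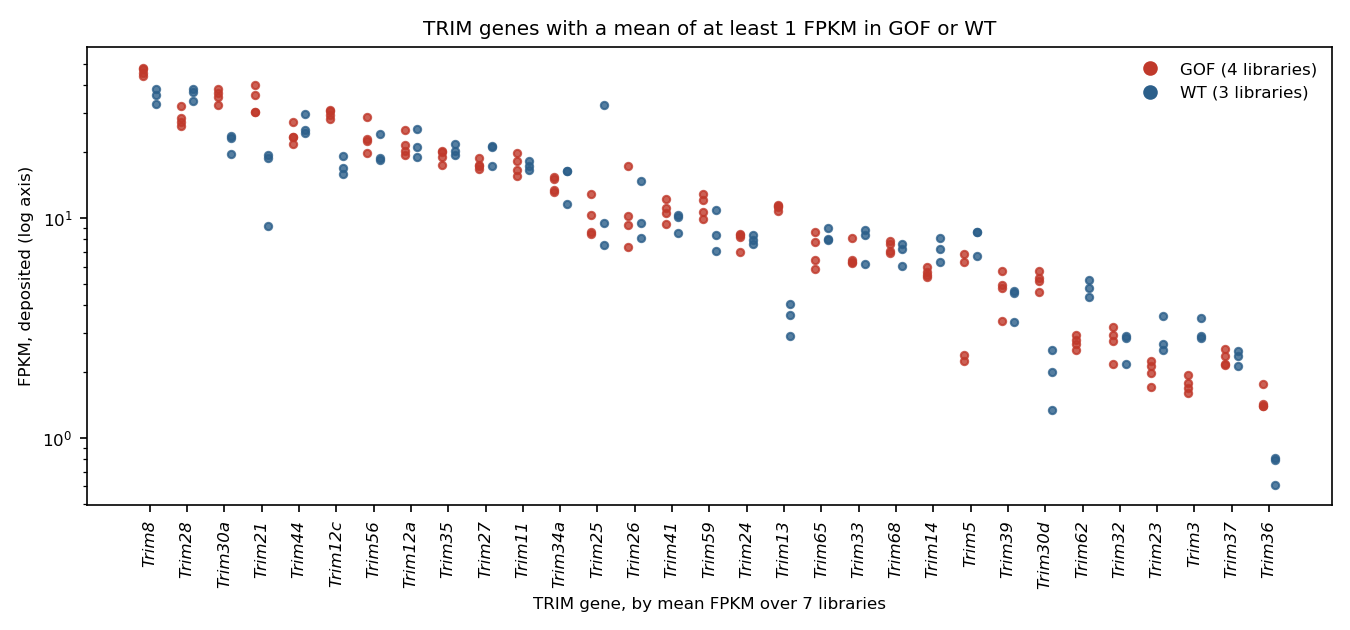
Deposited FPKM (log axis) of the 31 TRIM genes with a mean of at least 1 FPKM in either group, ordered by mean level, 1 point per library. Trim13 and Trim30d separate the groups clearly, and Trim25 has a single WT library at 32.4 FPKM, far above the others.

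The 16 genes at 0 were Trim15, Trim29, Trim30e-ps1 (a pseudogene), Trim31, Trim38, Trim42, Trim43c, Trim50, Trim52, Trim54, Trim55, Trim60, Trim63, Trim67, Trim71 and Trim75. A count of 0 allows up to 3 counts, or 0.180 to 0.215 CPM depending on the library (counting error only). The muscle genes Trim54, Trim55 and Trim63 were all among them, and the muscle membrane-repair gene Trim72 had 8 counts over the GOF libraries and 6 over the WT libraries. The 13 untested genes with counts never exceeded 31 counts in a library.

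The promoters of some TRIM genes hold a motif of interferon-responsive genes, and these sequences are shown because genes that rose and neighbours that did not share it. The interferon-stimulated response element was searched as GAAA, any 2 bases and GAAA again, on both strands, in RefSeq promoter windows of GRCm38.p6 that run from 250 bases before to 50 bases after a start site. It was present for 9 of the 52 TRIM genes with a window, and for 1079 of 27025 genes overall (3.99%). By outcome it was present for 4 of 6 TRIM genes that rose, 0 of 3 that fell, 5 of 21 that did not pass and 0 of 22 that were not tested. The TRIM genes with a match were Trim2, Trim5, Trim12a, Trim12c, Trim21, Trim26, Trim30a, Trim30d and Trim34a. The match of Trim2, which did not pass, begins 28 bases after its start site and is not printed below. Capitals mark the match, read 5′ to 3′ on the strand of the gene.
Trim12c, chr7:104353350-104353398, minus strand: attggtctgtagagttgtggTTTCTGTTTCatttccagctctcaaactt
Trim5, chr7:104288126-104288175, minus strand: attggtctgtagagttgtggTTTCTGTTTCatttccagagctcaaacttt
Trim12a, chr7:104315476-104315505, minus strand: attggtctgtagagttgtggTTTCTGTTTC
Trim30a, chr7:104465200-104465249, minus strand: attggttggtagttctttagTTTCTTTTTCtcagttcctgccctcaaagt
Trim30d, chr7:104507861-104507910, minus strand: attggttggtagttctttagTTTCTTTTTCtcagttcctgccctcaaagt
Trim21, chr7:102565454-102565483, minus strand: cctgcctctgagaggaaactGAAAGTGAAA
Trim34a, chr7:104244447-104244476, plus strand: ctgtatccgctggtttggagTTTCAGTTTC
Trim26, chr17:36836966-36837015, plus strand: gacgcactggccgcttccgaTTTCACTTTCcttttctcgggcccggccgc
The 30 bases that end at the match are identical in Trim12c, Trim5 and Trim12a, and the 50 bases shown for Trim30a and Trim30d are identical. Trim21 and Trim26 each hold a further match that overlaps the one shown, and Trim30a holds one at another start site. These neighbours are copies of each other, so their matches are not independent, and a match is a description of letters and not a binding site.

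The Trim6 to Trim30e-ps1 cluster on mm10 chromosome 7 (104218793 to 104535361) holds 11 of the 68 genes, of which 8 were tested. Of these 8, 4 rose and 0 fell, beside 16.8% higher and 14.5% lower among all tested genes. Several members share sequence, so their calls are not independent. All 4 that rose, Trim12c, Trim30b, Trim30a and Trim30d, lie next to each other on the minus strand, with only the untested Trim30c among them. Trim34a, Trim5, Trim12a and Trim34b, nearer to Trim6, did not pass. Trim34a is annotated on the plus strand from 104244457 to 104340693, across Trim5, Trim12a and the end of Trim12c on the minus strand, and without a stated strand setting their reads cannot be told apart there. The promoter match occurred on both sides of that divide, in Trim5, Trim12a and Trim34a as well as in Trim12c, Trim30a and Trim30d.

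**Figure D3:**
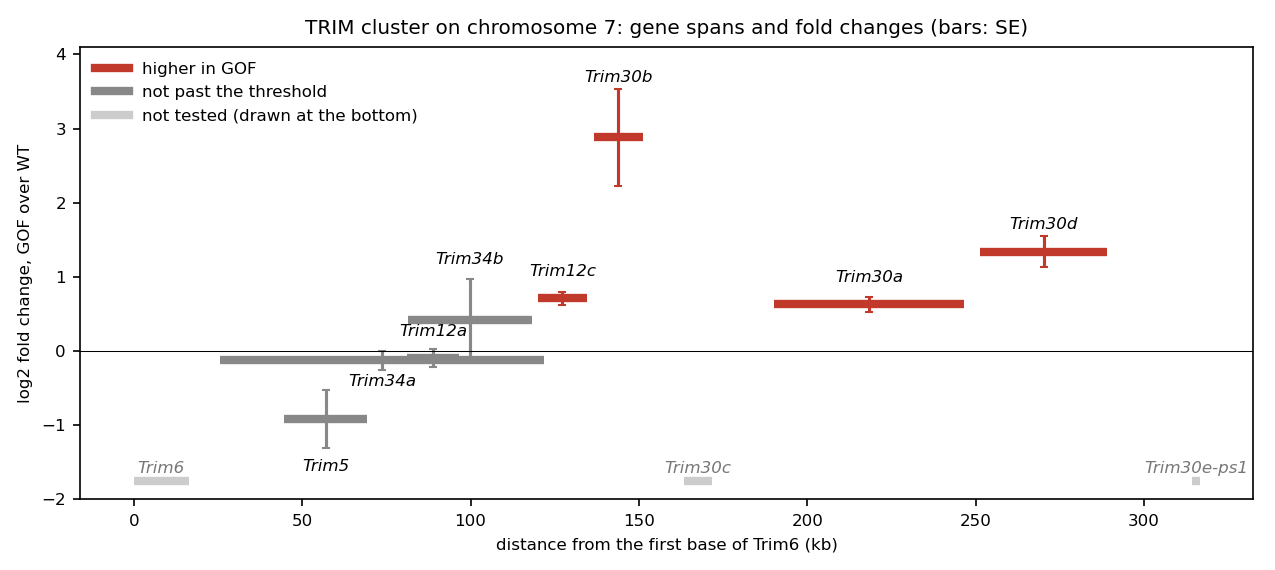
Gene spans in kb from the first base of Trim6 (x axis) and log2 fold change, GOF over WT (y axis), with SE bars, for the TRIM cluster on chromosome 7. The genes from Trim12c to Trim30d that were tested lie above 0.6, and 3 genes without a test are drawn at the bottom.

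Trim30a (ENSMUSG00000030921, mm10 chromosome 7, 104409025 to 104465193) encodes a mouse protein known to restrain NF-kappaB signalling from Toll-like receptors through TAB2 and TAB3. Its level was 188, 197, 166 and 183 CPM in GOF libraries and 106, 125 and 126 CPM in WT libraries. Every GOF library lay above every WT library, and the means of 184 ± 13.1 CPM (SD, n = 4) and 119 ± 10.9 CPM (SD, n = 3) gave a log2 fold change of 0.63 (SE 0.10, edgeR adjusted p = 0.00144). Its neighbour and paralogue Trim30d (104470014 to 104507849) had 29.1, 26.2, 23.4 and 27.2 CPM in GOF and 7.25, 13.6 and 10.6 CPM in WT. The groups were well apart, with a log2 fold change of 1.34 (SE 0.21, edgeR adjusted p = 0.00147), a 2.53-fold rise.

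Trim12c (104338754 to 104353362), a mouse relative of the retroviral restriction factor TRIM5 of primates, had 108, 120, 119 and 115 CPM in GOF libraries and 65.7, 78.5 and 68.6 CPM in WT libraries. It rose 1.63-fold without overlap (log2 fold change 0.71, SE 0.09, edgeR adjusted p = 0.000666). The rises of Trim30a, Trim30d and Trim12c passed under all 18 alternative settings, none of which changed how reads were counted. Other genes share 33.7% of the 50-base runs of Trim12c, 5.98% of those of Trim30a and 7.49% of those of Trim30d. Their counts may therefore include reads of other genes. Trim12a, a close relative of Trim12c, did not pass: it had 135, 140, 176 and 151 CPM in GOF and 141, 156 and 185 CPM in WT. Trim5, which shares 24.2% of the runs of 50 bases in the transcripts of Trim12c, had 11.6, 33.2, 30.9 and 11.0 CPM in GOF and 34.8, 44.5 and 44.0 CPM in WT. The GOF libraries fell into a low pair, replicates 1 and 4, and a higher pair, replicates 2 and 3, all below WT. Its log2 fold change was -0.92 with an SE of 0.39 and it did not pass (edgeR adjusted p = 0.102). It passed with DESeq2 (adjusted p = 0.0394), which called 35.1% of all genes it tested, and without GOF replicate 2 (edgeR adjusted p = 0.0455).

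Trim30b (104355382 to 104369884), another paralogue, was low in all libraries, at 71, 26, 57 and 34 counts in GOF and 3, 2 and 12 counts in WT. The means of 2.97 ± 1.32 CPM (SD, n = 4) and 0.396 ± 0.382 CPM (SD, n = 3) gave a log2 fold change of 2.88 (SE 0.65, edgeR adjusted p = 0.00952), the highest of the family. It was also higher in GOF replicates 1 and 3 than in replicates 2 and 4 (4.02 and 1.92 CPM on average), as were the macrophage markers, and their part in the result was not tested. Without GOF replicates 1 and 3 the log2 fold change was 2.24 and the call was lost (edgeR adjusted p = 0.0882), and without WT replicate 3, which held most of the WT counts, it was 4.01. On log2(FPKM + 1) in limma the difference was 0.32. Limma called 31.5% of all tested genes on that scale.

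Of the 50-base runs in its transcripts Trim34a shares 39.8% with Trim34b and 20.2% with the gene Gm47248, and Trim34b shares 56.8% with Trim34a, so that reads can be split between them. Trim34a had 79.0, 70.8, 81.9 and 70.0 CPM in GOF and 65.1, 91.7 and 90.7 CPM in WT, and it did not pass (edgeR adjusted p = 0.501). Trim34b stayed between 0.215 and 1.40 CPM in all libraries.

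Trim21 lies outside this cluster (ENSMUSG00000030966, mm10 chromosome 7, 102557922 to 102565469) and encodes the cytosolic Fc receptor that sends antibody-coated particles to the proteasome. It had 81.9, 108, 82.0 and 99.2 CPM in GOF libraries and 26.6, 55.2 and 53.0 CPM in WT libraries. WT replicate 1 was the lowest of all and the groups did not overlap. The 2.07-fold rise had a log2 fold change of 1.05 (SE 0.24, edgeR adjusted p = 0.0102), which was 0.78 without WT replicate 1, still past the threshold (edgeR adjusted p = 0.00670). Without GOF replicates 2 and 4 its call was lost (log2 fold change 0.88, edgeR adjusted p = 0.0706).

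Among the TRIM genes of RNA and DNA sensing, Trim14, a RING-less adaptor of the mitochondrial protein MAVS in human cells, fell. It had 31.1, 32.9, 30.2 and 29.8 CPM in GOF and 36.9, 46.8 and 41.5 CPM in WT, a log2 fold change of -0.43 (SE 0.11, edgeR adjusted p = 0.0164). The GOF libraries lay within a narrow band below all WT libraries. The call was lost without WT replicate 2 (edgeR adjusted p = 0.0503), without GOF replicates 1 and 3 or 2 and 4 (0.113 and 0.0738), and in limma. Its transcripts share 29.5% of their 50-base runs with the neighbouring gene Nans, so its count may include reads of that gene.

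Trim25, which attaches ubiquitin chains to RIG-I, had 58.1, 73.3, 48.2 and 49.5 CPM in GOF and 45.4, 195 and 56.3 CPM in WT. A single library, WT replicate 2, was several times higher than the rest. The log2 fold change of -0.79 (SE 0.45, edgeR adjusted p = 0.211) turned to 0.17 without that library (adjusted p = 0.546).

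Trim56, an antiviral protein linked to STING and RNA binding, had 224, 284, 196 and 224 CPM in GOF and 193, 253 and 194 CPM in WT. Trim65, the ligase of the RNA sensor MDA5, had 46.9, 63.2, 43.4 and 57.5 CPM in GOF and 62.0, 70.3 and 61.8 CPM in WT. Neither passed, and the groups overlapped for both.

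Trim26, a nuclear regulator of IRF3, had 80.2, 102, 190 and 112 CPM in GOF and 95.1, 110 and 168 CPM in WT. Replicate 3 was the highest of its group in both genotypes. Trim39, a ligase of cell cycle and apoptosis control on the same chromosome, had 64.0, 76.8, 45.7 and 66.8 CPM in GOF and 65.0, 66.1 and 47.0 CPM in WT. Here replicate 3 was the lowest of its group in both genotypes. The groups overlapped for both genes, and neither passed (edgeR adjusted p = 0.930 and 0.738).

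In all, 13 of the 15 genes listed for antiviral sensing and restriction were tested. The list leaves out Trim5, which did not pass (log2 fold change -0.92). Of the 13 listed genes tested, 5 rose (Trim12c, Trim21, Trim30a, Trim30b and Trim30d) and 1 fell (Trim14). Of these 5 all but Trim21 lie in the chromosome 7 cluster, where several members share sequence, so their calls are not independent. The list was drawn up with earlier results of these samples known. Among all tested genes 16.8% rose and 14.5% fell. The median log2 fold change of the list, without Trim5, was 0.12, beside 0.01 over all tested genes. Without GOF replicates 1 and 3, 4 rose and 0 fell. Without GOF replicates 2 and 4, 4 rose and 1 fell, which was Trim65 (log2 fold change -0.50, edgeR adjusted p = 0.0293) and not Trim14.

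Genes of nucleic acid sensing and its signalling were described from a list of 18, all tested. Of these 6 rose and 2 fell, beside 16.8% and 14.5% of all tested genes, with a median log2 fold change of -0.05. Ifih1, the sensor MDA5, had 45.2, 44.6, 44.2 and 40.9 CPM in GOF and 16.6, 17.9 and 13.5 CPM in WT (log2 fold change 1.45, SE 0.12, edgeR adjusted p = 5.79e-05). Dhx58, the regulator LGP2, had a log2 fold change of 2.01, Irf7 1.77, Ddx58, the sensor RIG-I, 0.74 and Tmem173, the adaptor STING, 0.53. Rnf135, a ligase of RIG-I, had 0.86, and its call was lost without WT replicate 3 or without GOF replicates 1 and 3 (edgeR adjusted p = 0.0536 and 0.139). The falls were Traf6, a ubiquitin ligase of NF-kappaB signalling (97.0 ± 9.09 CPM in GOF and 155 ± 9.72 CPM in WT, log2 fold change -0.68, SE 0.10, edgeR adjusted p = 0.000958), and Zc3hav1, the antiviral protein ZAP (log2 fold change -0.55, edgeR adjusted p = 0.00383). Without GOF replicates 1 and 3 the counts of the list were 5 and 3. Mavs, Tbk1, Irf3, Tab2 and Tab3 were among the 10 that did not pass. All 15 genes of a list of the interferon response rose, where 16.8% of all tested genes did. Their log2 fold changes ran from 0.50 for Stat2 to 4.89 for Mx1, with a median of 2.37. Stat2 lost its call without GOF replicates 2 and 4 or without WT replicate 3 (edgeR adjusted p = 0.114 and 0.0668), and the other 14 passed in all 18 alternatives. The interferon list and the list of 18 share Irf7. Both were drawn up with earlier results of these samples known and are not independent evidence of their direction.

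The TIF1 group are chromatin corepressors. Trim28, or KAP1, is recruited by KRAB zinc finger proteins to silence endogenous retroviruses (ENSMUSG00000005566, mm10 chromosome 7, 13024152 to 13031035). It had 190, 207, 200 and 237 CPM in GOF libraries and 301, 288 and 259 CPM in WT libraries. It fell without overlap, to 209 ± 20.3 CPM (SD, n = 4) in GOF, against 282 ± 21.5 CPM (SD, n = 3) in WT (log2 fold change -0.44, SE 0.10, edgeR adjusted p = 0.00924). The call was lost without GOF replicates 1 and 3 (log2 fold change -0.35, edgeR adjusted p = 0.0917).

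Trim24, a coregulator of nuclear receptors and p53, had 80.7, 83.5, 83.0 and 69.5 CPM in GOF and 80.0, 87.8 and 82.3 CPM in WT, so the groups overlapped. Trim33, which acts on Smad4 in TGF-beta signalling, had 96.2, 122.5, 95.3 and 94.5 CPM in GOF and 99.2, 140 and 132 CPM in WT. It did not pass (log2 fold change -0.28, edgeR adjusted p = 0.172), and it did without WT replicate 1 (log2 fold change -0.42, edgeR adjusted p = 0.0423). Trim66 had 9 counts over the GOF libraries and 10 over the WT libraries, all 10 in WT replicate 2, and was not tested.

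Of 14 chromatin partners of this group, 1 rose and 1 fell, where 16.8% and 14.5% of all tested genes did. Their median log2 fold change was -0.10. Smad4 had 88.2, 89.8, 85.1 and 88.9 CPM in GOF and 117, 134 and 139 CPM in WT (log2 fold change -0.56, SE 0.09, edgeR adjusted p = 0.00143). Uhrf1, a reader of hemimethylated DNA that is high in dividing cells, had 13.1, 10.1, 15.3 and 10.9 CPM in GOF and 2.94, 5.51 and 3.76 CPM in WT (log2 fold change 1.60, edgeR adjusted p = 0.00191). The histone methyltransferase Setdb1, the partner of Trim28 in silencing, and the HP1 genes Cbx1, Cbx3 and Cbx5 did not pass.

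Trim13 gave the smallest p of the family. It encodes a ligase anchored in the membrane of the endoplasmic reticulum, where it takes part in protein degradation (ENSMUSG00000035235, mm10 chromosome 14, 61598226 to 61605946). Its level was 17.8, 19.0, 18.7 and 18.7 CPM in GOF libraries and 6.39, 7.09 and 5.01 CPM in WT libraries. The 4 GOF libraries were nearly equal, at 18.6 ± 0.555 CPM (SD, n = 4) against 6.16 ± 1.06 CPM (SD, n = 3). The 3.01-fold rise had a log2 fold change of 1.59 (SE 0.16, edgeR adjusted p = 0.000136), which ran from 1.44 to 1.70 over 18 alternatives, all past the threshold. Its transcripts share 14.2% of their 50-base runs with the gene Gm9359.

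Of the other genes listed with it, Trim23, whose C-terminal domain is an ARF-type GTPase, fell. It had 19.2, 14.6, 18.3 and 16.97 CPM in GOF and 22.9, 32.5 and 23.9 CPM in WT (log2 fold change -0.61, SE 0.16, edgeR adjusted p = 0.0198). WT replicate 2 was the highest, and without it the log2 fold change was -0.44 and the call was lost (edgeR adjusted p = 0.0591). The call was also lost without GOF replicates 2 and 4 (0.121) and in limma. Trim59, a membrane-anchored member, had 60.6, 49.7, 64.7 and 53.8 CPM in GOF and 38.0, 57.9 and 44.0 CPM in WT, and it passed only without WT replicate 2 (edgeR adjusted p = 0.187 with all libraries and 0.0359 without that library). Trim37, a ligase of centrioles and peroxisomes, had 17.2 ± 1.42 CPM in GOF and 18.2 ± 1.36 CPM in WT and did not pass.

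Among genes with a microtubule-binding COS box, Trim36 rose, at 6.57, 8.30, 6.73 and 6.62 CPM in GOF and 3.09, 4.06 and 3.90 CPM in WT (log2 fold change 0.94, SE 0.21, edgeR adjusted p = 0.00900). The groups did not overlap, and without GOF replicates 2 and 4 the call was lost (edgeR adjusted p = 0.0532). Trim46, known from axons, stayed between 1.39 and 4.34 CPM and did not pass. Trim9 had 5 counts over GOF and 1 over WT libraries.

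The NHL-repeat group is best known from neurons and muscle. Trim3 (ENSMUSG00000036989, mm10 chromosome 7, 105604463 to 105633571) fell, with 12.4, 11.9, 11.3 and 13.6 CPM in GOF and 26.4, 21.6 and 20.9 CPM in WT. The groups lay far apart relative to their spread (log2 fold change -0.90, SE 0.14, edgeR adjusted p = 0.00151), and the fall passed under all 18 alternatives. Trim32 had 20.2 ± 3.27 CPM in GOF and 20.3 ± 3.02 CPM in WT. Trim2 had 2.92 to 3.36 CPM in GOF and 3.52 to 5.51 CPM in WT, without overlap, and did not pass (edgeR adjusted p = 0.184).

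Of the 14 tested genes in none of these groups, Trim5 among them, 1 rose and 1 fell, beside 16.8% and 14.5% of all tested genes. Trim62, which ubiquitinates the signalling adaptor CARD9 (ENSMUSG00000041000, mm10 chromosome 4, 128883580 to 128911328), had 14.9, 16.02, 16.7 and 17.7 CPM in GOF and 30.4, 27.6 and 32.6 CPM in WT. It fell to 16.3 ± 1.17 CPM (SD, n = 4) in GOF, against 30.2 ± 2.53 CPM (SD, n = 3) in WT (log2 fold change -0.89, SE 0.12, edgeR adjusted p = 0.000741), and passed under all 18 alternatives.

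Trim8, a regulator of cytokine and NF-kappaB signalling, had 143, 152, 140 and 151 CPM in GOF and 111, 128 and 119 CPM in WT. The 1.23-fold rise was the smallest that passed (log2 fold change 0.30, SE 0.08, edgeR adjusted p = 0.0241). The call was lost without GOF replicate 4, WT replicate 1 or WT replicate 3 (edgeR adjusted p = 0.0584, 0.0778 and 0.0764) and without GOF replicates 1 and 3 or 2 and 4 (0.0822 and 0.118).

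Trim27 is known to restrain CD4 T cells by ubiquitinating a class II PI3K, a different enzyme from p110delta. It had 93.1, 89.2, 92.2 and 101 CPM in GOF and 98.2, 120 and 117 CPM in WT. The groups overlapped at WT replicate 1 and the gene did not pass (log2 fold change -0.25, SE 0.10, edgeR adjusted p = 0.0777), while without that library it did (log2 fold change -0.34, edgeR adjusted p = 0.0258).

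Trim35 (86.3 ± 5.69 CPM in GOF and 97.3 ± 5.85 CPM in WT), the RING-less Trim44 (143 ± 14.6 and 166 ± 18.9 CPM) and Trim11 (124 ± 14.02 and 129 ± 6.63 CPM) were well expressed and did not pass. Trim41 and Trim68 had log2 fold changes of 0.08 and 0.01. Trim7, known to bind the glycogen primer glycogenin, had 3.19, 1.91, 2.46 and 2.06 CPM in GOF and 0.862, 1.86 and 1.25 CPM in WT, without overlap, and did not pass (edgeR adjusted p = 0.118).

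**Figure D4:**
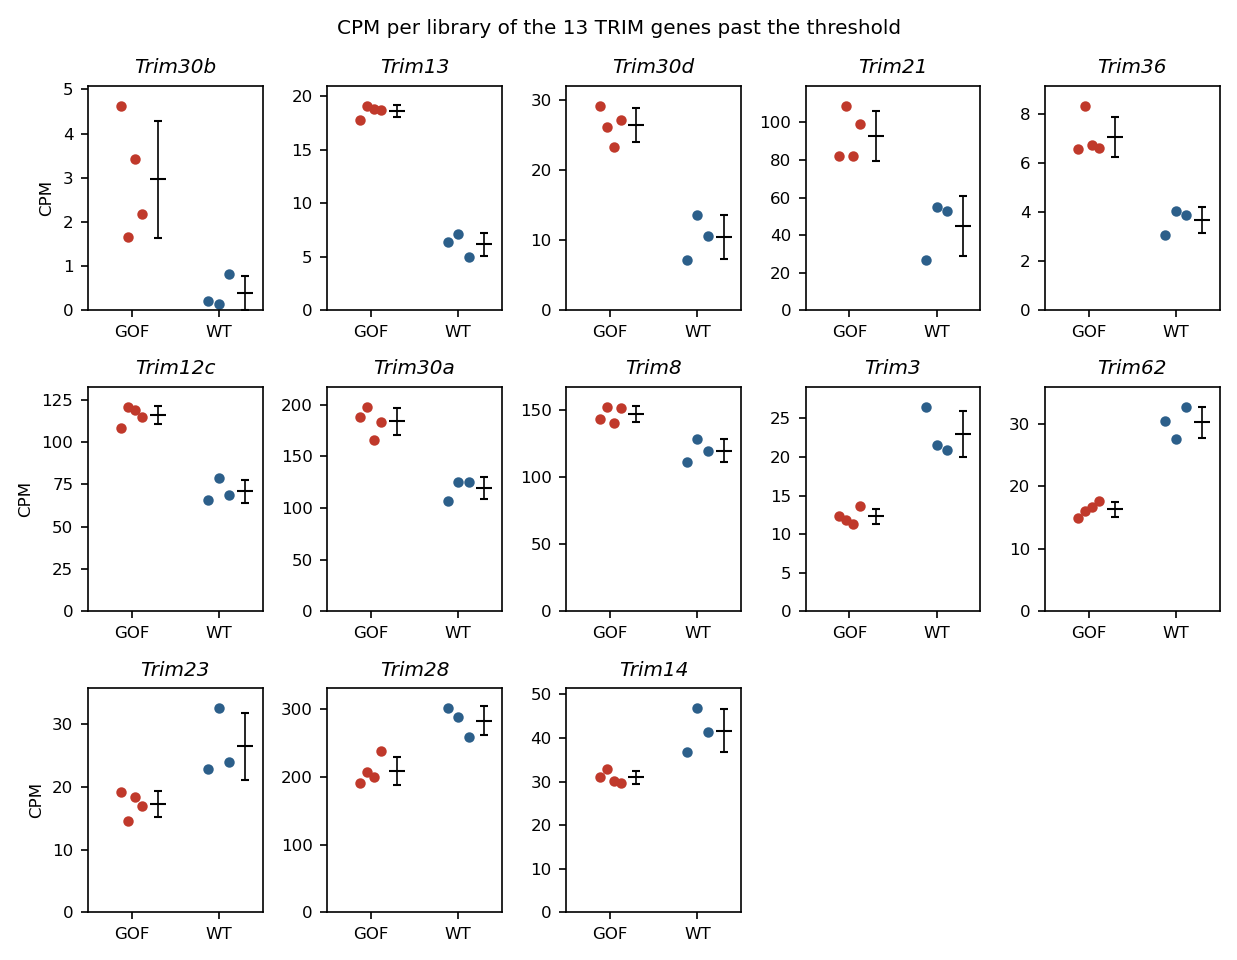
CPM per library (y axes start at 0) of the 8 TRIM genes that rose and the 5 that fell, GOF in red and WT in blue, with mean and SD in black. No GOF library overlaps a WT library in any panel, and the GOF values of Trim13 lie closest together relative to their mean.

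Trim10 and Trim58 are known from red cell precursors, where Trim58 acts on the motor dynein before the nucleus is expelled. Trim10 had 19, 1, 31 and 0 counts in GOF libraries and Trim58 had 3, 0, 16 and 1, while both had 0 counts in WT libraries. Neither passed the filter on low counts with all libraries. Without GOF replicates 2 and 4, 1 of them passed it and was called higher. With 3 counts per WT library as the floor, Trim10 was at least 3.76-fold and Trim58 at least 1.45-fold higher on average. GOF replicate 3 held 31 of the 51 counts of Trim10 and 16 of the 20 counts of Trim58. In an alternative chosen after seeing the data, the bound of Trim10 was 2.06-fold without that library. The GOF mean of Trim58, at 0.0864 CPM, then lay under the WT floor of 0.210 CPM, which leaves no bound. Over GOF replicates 2 and 4 alone the mean of Trim10 was 0.0319 CPM, also under that floor. Its bound therefore rests on GOF replicates 1 and 3. The 10 red cell markers summed to 84.6, 20.7, 87.7 and 25.5 CPM in GOF libraries, in the same order, and to 9.98, 20.2 and 5.98 CPM in WT. Markers with 0 counts in WT included Car1, Slc4a1 and Epb42. The part of such cells in the counts of Trim10 and Trim58 was not tested.

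**Figure D5:**
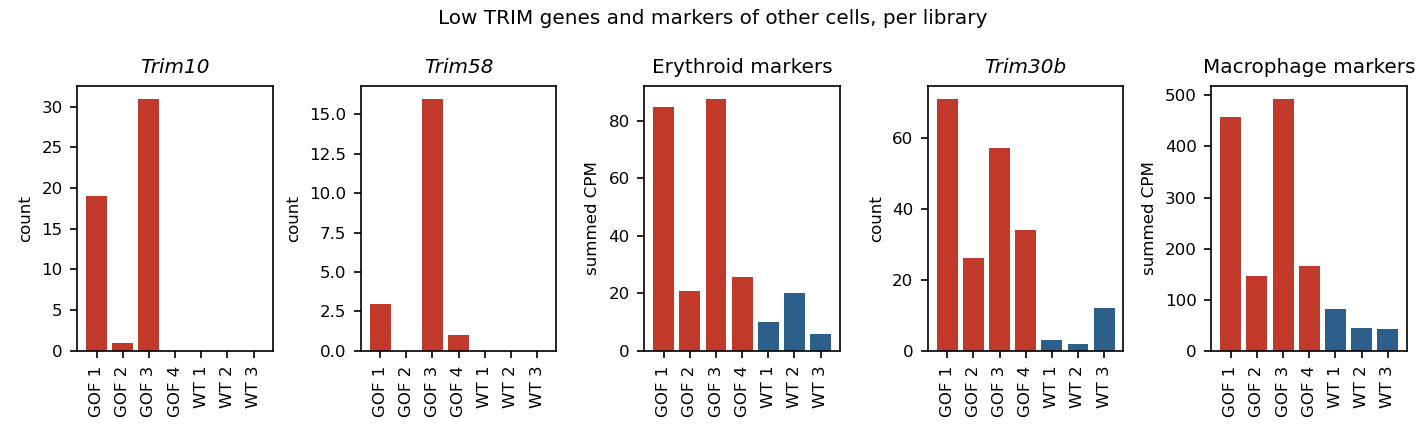
Counts of Trim10, Trim58 and Trim30b and summed CPM of red cell and macrophage markers in each library, GOF in red and WT in blue (bars from 0). Each of the 5 measures is higher in GOF replicates 1 and 3 than in GOF replicates 2 and 4.

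Among 8 relatives of the family under other names 5 were tested, 2 rose and 0 fell, beside 16.8% and 14.5% of all tested genes. Pml, the organiser of the nuclear bodies named after it, had 95.2, 69.6, 83.9 and 78.7 CPM in GOF and 36.7, 44.7 and 31.2 CPM in WT (log2 fold change 1.12, SE 0.15, edgeR adjusted p = 0.000747). Fsd2 averaged 8.80 ± 0.671 CPM in GOF and 5.09 ± 1.31 CPM in WT (edgeR adjusted p = 0.0229). Its call was lost without GOF replicate 3 or WT replicate 3 (0.0600 and 0.0613), and without GOF replicates 1 and 3 or 2 and 4 (0.126 and 0.0752). Mid1, a microtubule-bound ligase, did not pass. Mefv, the inflammasome sensor pyrin of myeloid cells, had 1.43, 0.255, 1.20 and 0.450 CPM in GOF and 0, 0.413 and 0 CPM in WT, and was not tested.

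Of 14 E2 enzymes that load ubiquitin for RING ligases, 1 rose and 2 fell, beside 16.8% and 14.5% of all tested genes. Their median log2 fold change was -0.03. Ube2l6, the E2 for the ubiquitin-like modifier ISG15, had 10.9, 6.70, 9.13 and 7.20 CPM in GOF and 2.80, 3.10 and 1.74 CPM in WT (log2 fold change 1.73, SE 0.28, edgeR adjusted p = 0.00199). Ube2l3 had 8.39, 7.15, 10.8 and 8.55 CPM in GOF and 80.3, 73.0 and 9.74 CPM in WT. WT replicates 1 and 2 were far above all other libraries, while WT replicate 3 lay among the GOF libraries (log2 fold change -2.64, edgeR adjusted p = 0.00737). The call was lost without GOF replicates 1 and 3 or 2 and 4 (0.0542 and 0.0682). Ube2d2a, a general partner of RING ligases, fell to 218 ± 2.93 CPM in GOF, against 272 ± 28.2 CPM in WT (log2 fold change -0.32, edgeR adjusted p = 0.0189). Its call was lost without WT replicate 3 (0.0738), without GOF replicate 3 (0.0501), with library totals in place of TMM (0.0598), in limma (0.0547), without GOF replicates 1 and 3 (0.104), and likewise without GOF replicates 2 and 4. Ube2n, which with Ube2v1 builds the K63-linked chains of signalling, did not pass.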

How the data were processed

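The authors deposited raw counts and FPKM values, side by side for 34745 genes in 7 libraries. Cufflinks 2.1.1, Cuffdiff, HISAT2 2.0.4 and the mm10 build are listed, without roles, per the submitters' processing notes. How reads were counted, including strand and multiple mapping, is not given in the sources used here, so values of near-identical or overlapping genes are uncertain. Each deposited FPKM equals its count over a fixed gene length and the column total (within 0.1% for 100% of values). Groups came from sample titles and columns from sample descriptions.

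Deposited counts were tested with edgeR 4.0.16 (R 4.3.3; filterByExpr, TMM, quasi-likelihood F test) in all 7 libraries, with Benjamini-Hochberg adjustment over 12668 genes. The code was tested on simulated data. The SE came from the fold change and the F statistic. Alternatives used DESeq2 1.42.0, limma 3.58.1 on log2(FPKM + 1) and log2(FPKM + 0.1), other scaling, filters and libraries. Runs of 50 bases shared between genes were counted in GENCODE M21 transcripts, on either strand. All TRIM genes that passed could be named, and those that did not where their role group held one that passed or their mean was at least 10 CPM. Untested genes and Trim7, Trim34b and Trim46 were named to account for the family. Members and lists were chosen with earlier results of these data known. Floors of 3 counts cover counting error only.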

Additional observations from a re-analysis of the deposited data

Results flagged for a closer look

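In each of 39 tested TRIM genes the highest and the lowest of the 4 GOF libraries were compared with the rest by Dixon's ratio, which by chance marks about 1 group in 20. GOF replicate 2 stood above the other GOF libraries for 2 genes. It had 122.5 CPM of Trim33, where the others had 94.5 to 96.2 CPM, and 8.30 CPM of Trim36, where the others had 6.57 to 6.73 CPM. Without that library the log2 fold change of Trim33 was -0.37 (edgeR adjusted p = 0.0671, not past the threshold) and that of Trim36 was 0.85 (edgeR adjusted p = 0.0241, past it).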

How the results depend on the processing

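Over 18 alternatives the number of TRIM genes that rose was 6 to 9, where all libraries with TMM gave 8. Without GOF replicates 2 and 4 it was 6, of which 5 were among the 8, and the other was Trim10 or Trim58. The number that fell was 5 with all libraries and TMM, and also 5 with library totals, upper-quartile factors and both other filters. It was 6 with DESeq2, 3 in limma with either pseudocount, 3 without GOF replicates 1 and 3, and 4 without GOF replicates 2 and 4, of which 3 were among the 5. Leaving out 1 library at a time it ran from 3 (without WT replicate 2) to 7 (without WT replicate 1). Of the 13 genes that passed, 6 passed in every alternative that tested them (Trim3, Trim12c, Trim13, Trim30a, Trim30d and Trim62), and 7 lost the call in at least 1. The labels do not say whether same-numbered libraries were paired. The deviations of such libraries from the group means had correlations of 0.03, 0.091 and -0.068, which cannot decide it. A fit with the replicate number as a block, which leaves out GOF replicate 4, called 7 higher and 4 lower, against 7 and 5 in the same libraries without the block. The fall lost under the block was that of Trim23 (edgeR adjusted p = 0.0814, against 0.0453 without the block). No gene that passed changed direction. Of the 26 that did not pass, 13 changed sign somewhere, in 0 cases past the threshold. With library totals, upper-quartile factors, and limma with a pseudocount of 1 or 0.1, log2 fold changes were 0.02, 0.02, 0.01 and 0.01 for Trim11, 0.00 for Trim24 in the first 3 of these settings, 0.03, 0.04, 0.01 and 0.00 for Trim26, 0.06, 0.07, 0.05 and 0.06 for Trim32 (0.01 with a mean FPKM of at least 1), and 0.02, 0.02, 0.02 and 0.11 for Trim46. Without GOF replicates 1 and 3 Trim11 was at 0.05 and Trim68 at -0.00, and without replicates 2 and 4 Trim26, Trim32, Trim39, Trim46, Trim47 and Trim56 were at 0.13, 0.04, -0.10, 0.04, 0.23 and -0.01. With the block Trim16, Trim46 and Trim68 were at 0.02, 0.06 and -0.01, and Trim68 at -0.02 without it. Leaving out single libraries gave -0.13 to 0.00 for Trim11, -0.19 to 0.01 for Trim12a, -0.38 to 0.13 for Trim16, -1.14 to 0.17 for Trim25, -0.34 to 0.23 for Trim26, -0.13 to 0.09 for Trim32, -0.03 to 0.91 for Trim34b, -0.05 to 0.23 for Trim39, -0.39 to 0.37 for Trim46, -0.37 to 0.38 for Trim47 and -0.08 to 0.07 for Trim68. The cause was not tested. The median log2 fold change of all genes was 0.082 with library totals, 0.083 with upper-quartile factors and 0.102 without a filter, beside 0.006. With 4 and 3 libraries, and under 3 CPM for Trim30b, Trim7 and Trim34b on average, small differences of low genes could not be resolved.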
